A study of Mus musculus with 8 samples.

Results

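Accessible chromatin was described at 10 mouse genes of Toll-like receptor and inflammasome signalling: the receptors Tlr2, Tlr3, Tlr4, Tlr5 and Tlr9, the adaptors Myd88 and Ticam1, the inflammasome sensor Nlrp3, the protease Casp1 and the cytokine Il1b. The genes were chosen by name, with earlier results of these data known. Every ATAC-seq peak that overlapped one of them or the 10 kb on either side was taken (genome build GRCm38). Peaks of all 8 libraries sharing at least 1 bp were merged into 189914 regions, of which 49 belonged to the 10 genes. All 10 genes had at least 3 regions, and Nlrp3, with 9, had the most.

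The libraries came from retinal ganglion cells (RGCs), the neurons whose axons form the optic nerve, of C57BL/6J mice. Each mouse received an adeno-associated virus (AAV2) in the vitreous that carried GFP (3 libraries, the control), Ezh2 (3 libraries) or Ezh2-Y726D (2 libraries), and its optic nerve was crushed 2 weeks later. RGCs were sorted 3 days after the crush, so all 3 groups were injured, and 50000 cells went into each library. Ezh2 is the enzyme of Polycomb repressive complex 2 that methylates lysine 27 of histone H3, and Ezh2-Y726D is a catalytically dead form of it. The sort took living cells with surface CD90.2 (Thy1), a protein that T cells also carry, and the labels name no promoter for the virus. The labels do not say which libraries came from separate animals, so the spread between libraries may be partly technical.

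Toll-like receptors recognise molecules of microbes and of damaged cells. Tlr2, Tlr4 and Tlr5 sit at the cell surface and sense bacterial lipoproteins, lipopolysaccharide and flagellin, whereas Tlr3 and Tlr9 sit in endosomes and sense double-stranded RNA and unmethylated CpG DNA. Myd88 and Ticam1 (TRIF) pass the signal on to NF-kB and interferon regulatory factors. NF-kB induces Nlrp3 and Il1b, and the assembled Nlrp3 inflammasome activates caspase-1, which cleaves pro-interleukin-1 beta. In the retina these genes are best known from microglia and infiltrating myeloid cells, and several are also used by glia and neurons.

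Promoter sequences from RefSeq (GRCm38.p6), the 250 bases before the annotated start, were matched for 9 of the 10 genes, with 2 starts for Nlrp3 and none for Tlr4. They are shown for the genes whose start region differed in any comparison below (Tlr9, Nlrp3, Casp1 and Myd88) and for Tlr2 and Ticam1, whose start region did not. Each is written 5′ to 3′ on the strand of the gene, and capitals mark a match to a motif on either strand.
Tlr9 promoter, chr9:106222348-106222597, strand +: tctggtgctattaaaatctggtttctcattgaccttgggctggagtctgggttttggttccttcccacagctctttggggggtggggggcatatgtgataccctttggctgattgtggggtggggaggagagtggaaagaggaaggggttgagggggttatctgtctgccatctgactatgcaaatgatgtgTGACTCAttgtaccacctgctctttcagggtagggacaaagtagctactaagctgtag
Nlrp3 first promoter, chr11:59541319-59541568, strand +: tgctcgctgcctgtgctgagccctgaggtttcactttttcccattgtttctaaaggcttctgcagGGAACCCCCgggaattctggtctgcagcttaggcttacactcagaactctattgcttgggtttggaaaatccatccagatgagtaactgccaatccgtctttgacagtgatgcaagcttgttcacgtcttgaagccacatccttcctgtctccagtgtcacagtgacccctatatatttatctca
Nlrp3 second promoter, chr11:59542436-59542685, strand +: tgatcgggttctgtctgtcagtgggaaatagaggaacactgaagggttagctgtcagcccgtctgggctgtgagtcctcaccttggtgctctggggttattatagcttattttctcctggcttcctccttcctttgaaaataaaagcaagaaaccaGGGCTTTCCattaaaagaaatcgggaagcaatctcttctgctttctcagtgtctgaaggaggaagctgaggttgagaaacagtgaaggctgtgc
Casp1 promoter, chr9:5298267-5298516, strand +: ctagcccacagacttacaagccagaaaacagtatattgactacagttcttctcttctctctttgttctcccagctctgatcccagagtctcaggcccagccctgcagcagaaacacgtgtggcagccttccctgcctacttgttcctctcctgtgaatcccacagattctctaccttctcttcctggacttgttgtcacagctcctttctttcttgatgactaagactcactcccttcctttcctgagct
Myd88 promoter, chr9:119340019-119340268, strand -: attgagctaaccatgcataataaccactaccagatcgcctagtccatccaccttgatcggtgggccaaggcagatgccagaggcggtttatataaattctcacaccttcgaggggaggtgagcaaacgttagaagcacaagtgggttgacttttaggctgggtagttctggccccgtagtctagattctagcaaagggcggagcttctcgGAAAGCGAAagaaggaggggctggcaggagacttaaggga
Tlr2 promoter, chr3:83841609-83841858, strand -: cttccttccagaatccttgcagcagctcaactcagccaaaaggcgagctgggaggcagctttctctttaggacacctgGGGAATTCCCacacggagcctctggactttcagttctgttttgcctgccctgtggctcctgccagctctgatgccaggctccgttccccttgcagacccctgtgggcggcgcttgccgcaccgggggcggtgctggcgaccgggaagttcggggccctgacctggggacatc
Ticam1 promoter, chr17:56276768-56277017, strand -: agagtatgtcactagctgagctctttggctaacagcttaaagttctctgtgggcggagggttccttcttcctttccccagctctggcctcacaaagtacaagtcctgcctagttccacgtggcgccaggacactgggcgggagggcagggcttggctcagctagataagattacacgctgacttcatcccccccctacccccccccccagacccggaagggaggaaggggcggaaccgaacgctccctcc

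The motifs searched were GAGGAAGT (PU.1), GGGNNTTCC (NF-kB), TGANTCA (AP-1) and GAAANNGAA (IRF), which were held by 2.44%, 4.98%, 6.75% and 7.13% of 32851 promoters of the same length. The capitals in both Nlrp3 promoters were NF-kB matches, ending 176 and 85 bases before the first and the second start. Those in Tlr2 were 2 overlapping NF-kB matches on the 2 strands of 1 palindromic run. Tlr9 held an AP-1 match 51 bases and Myd88 an IRF match 31 bases before the start, and Casp1 and Ticam1 held none of the 4 motifs, as did Tlr3, Tlr5 and Il1b, whose sequences are not shown. The PU.1 letters were found in none of the 10 promoters of these 9 genes. In base composition, the promoters held 0 CpG in Tlr9, 4 and 3 in Nlrp3, 1 in Casp1 and 2 in Il1b. Tlr2 had 11 CpG, Myd88 9, Ticam1 9, Tlr3 6 and Tlr5 4, and the median of all promoters was 6. These are descriptions of the sequences and show no binding.

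As the files give no read counts, each peak was measured by its fold over the local background (the value that the peak caller writes), turned into a percentile among the peaks of its own list, where 100 is the strongest. A region without a peak has no fold: it fell below the caller's threshold and need not be closed. The lists held 112939 to 133674 peaks for GFP, 126271 to 135895 for Ezh2, and 124666 and 128728 for Ezh2-Y726D, and a depth index read from the background term of the folds was 2.69 to 3.74, 3.09 to 3.59, and 2.39 and 3.12. The median percentile of the 17 member regions with a peak in all 8 lists was 75.3, against 67.3 for all 69493 such regions.

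Fewer regions of these genes had a peak with Ezh2-Y726D than in any other library. Peaks were found in 33, 33 and 39 of the 49 regions for the GFP replicates, 39, 37 and 43 for Ezh2, and 24 and 21 for Ezh2-Y726D. The 3 groups thus ordered as Ezh2, GFP and Ezh2-Y726D by mean, with GFP and Ezh2 overlapping (37 to 39) and Ezh2-Y726D below both. As shares these were 67.3% to 79.6%, 75.5% to 87.8%, and 49% and 42.9%. Over all merged regions the same shares were 56.8% to 68.0%, 63.8% to 69.0%, and 63.2% and 65.6%, so that the Ezh2-Y726D lists, taken as a whole, were not short of peaks. The group means differed by 4.67 regions between Ezh2 and GFP, by -12.5 between Ezh2-Y726D and GFP and by 17.2 between Ezh2 and Ezh2-Y726D. Both comparisons with GFP use the same 3 control libraries.

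**Figure D1:**
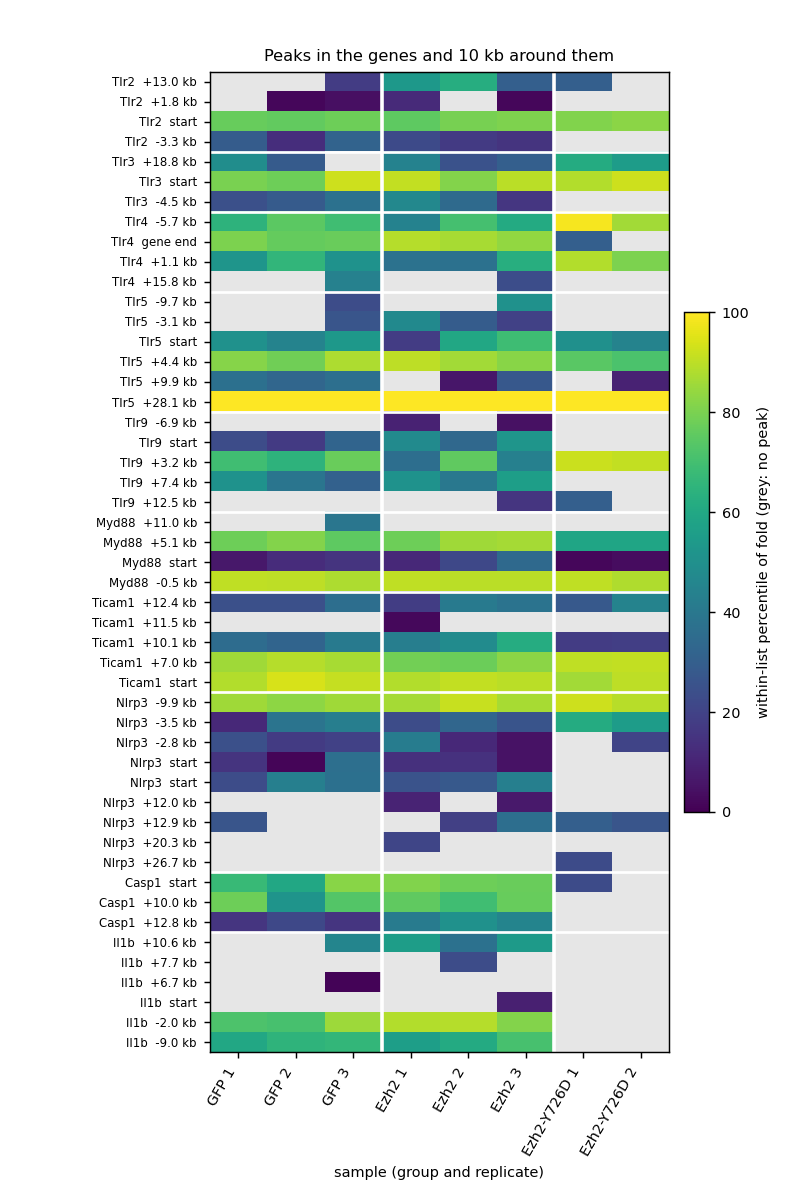
Each of the 49 regions (y axis, by gene and distance from the nearest annotated start in kb, with minus for upstream; for Tlr4 from the gene end at the lower coordinate) in each of the 8 libraries (x axis), coloured by the percentile of its fold within the library's list, with grey for no peak. Il1b is grey throughout in both Ezh2-Y726D libraries, and Casp1 has 1 peak there, whereas the start regions of Tlr2, Tlr3, Tlr5 and Ticam1 are coloured in all 8.

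By presence, a region was counted as gained when every library of the first group had a peak and no library of the second did, and as lost in the reverse case. Between Ezh2 and GFP, 0 member regions of the 48 with a peak in either group were gained and 0 were lost, against 3.01% gained and 1.85% lost among all regions. Leaving out GFP replicate 3, which eases the rule, gave 3 gained or lost, and leaving out Ezh2 replicate 2 gave 2. Between Ezh2-Y726D and GFP, 10 of 43 (23.3%) were lost and 0 gained, where 5.32% of all regions were lost and 5.36% gained. They lay at Tlr2, Tlr3, Tlr9, Nlrp3, Casp1 and Il1b. Between Ezh2 and Ezh2-Y726D, 12 of 47 (25.5%) were gained and 0 lost, against 9.38% and 6.43% of all regions, and Tlr5 joined the same genes. The 10 lost regions all had a peak in the 3 Ezh2 libraries too, a pattern held by 20.4% of the member regions and by 3.61% of all regions. Their median percentile was 33.8 (14.3 to 81.2), below the 49.4 of all 6855 regions of the same pattern. Of the rest, 17 had a peak in all 8 lists, 3 had one in every GFP and Ezh2 list and 1 Ezh2-Y726D list, 13 had none in Ezh2-Y726D but not one in every other list, 1 (in the flank of Nlrp3) was seen with Ezh2-Y726D alone, and 5 had other patterns. By position, the lost regions were 3 over a gene start and 7 in the flanks, and 0 of the 10 regions inside gene bodies were lost.

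For a test that includes missing peaks, the percentile was set to 0 where a list had no peak, an imputed value, and group means were compared with limma over the 157183 regions with a peak in at least 2 lists, 42 of them members. Calls were made under an adjusted p of 0.05 (Benjamini-Hochberg, over all regions). Where neither Ezh2-Y726D library had a peak, its values were imputed, so the SE and p hold no measured spread of that group. Between Ezh2-Y726D and GFP, 10 of the 42 (23.8%) were lower and 0 higher, against 5.78% and 6.18% of all regions. At an unadjusted p under 0.05, 15 were lower and 3 higher. Without Ezh2-Y726D replicate 1, and likewise without replicate 2, 5 regions were called. Between Ezh2 and Ezh2-Y726D, 12 (28.6%) were higher with Ezh2 and 3 lower, against 11.5% and 9.85% of all regions, and 9 were called in all when either Ezh2-Y726D library was left out. Between Ezh2 and GFP, 1 region (in the flank of Casp1) was higher and 0 lower by limma, against 4.36% and 2.70% of all regions, while 5 were higher and 2 lower at an unadjusted p under 0.05. With lists of equal length this region was not called, and 1 other (in the body of Tlr5) was lower. The total of 1 became 2 without GFP replicate 3 or Ezh2 replicate 3 and 3 without Ezh2 replicate 2. The median difference over the 42 regions was 3.77 percentile points for Ezh2 against GFP, -8.27 for Ezh2-Y726D against GFP and 8.55 for Ezh2 against Ezh2-Y726D, where the medians over all regions were 1.21, 0.0345 and 0.147.

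Calls among the 17 member regions with a peak in all 8 lists went in both directions. Lost peaks could not enter this set. For this test, ranks within a list, expressed as normal scores, were compared with limma over 69493 regions. Between Ezh2 and GFP, 0 were higher and 0 lower by limma, against 1.59% and 2.84% of all regions, with 1 in each direction at an unadjusted p under 0.05. Between Ezh2-Y726D and GFP, 1 was higher (at Tlr4) and 0 lower, against 3.55% and 4.65% of all regions, with 4 in each direction at an unadjusted p under 0.05. Leaving out GFP replicate 1, Ezh2 replicate 1 or Ezh2-Y726D replicate 1 left no call, and leaving out Ezh2-Y726D replicate 2 gave 3. Other settings called other regions. Ranking by −log10 p gave 0 higher and 3 lower, at Myd88 and Ticam1, and the Tlr4 region missed the threshold at 0.82. Testing the regions with a peak in at least 5 lists gave 0 higher and 10 lower. All 10 lacked a peak in 1 or both Ezh2-Y726D lists, so none was among the 17. With Ezh2 set against Ezh2-Y726D, 3 (17.6%) were higher with Ezh2, at Myd88 and Ticam1. A further 4 (23.5%) were lower, at Tlr4, Tlr9 and Nlrp3. Of all regions, 7% were higher and 6.96% lower. That total of 7 fell to 0 without Ezh2-Y726D replicate 1 and to 4 without replicate 2.

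Counted per gene, the number of regions with a peak did not overlap between Ezh2-Y726D and GFP for Tlr9, Nlrp3, Casp1 and Il1b, all lower with Ezh2-Y726D (4 of 10 genes, where 10.7% of all annotated genes with a peak were lower in this sense). The same number did not overlap between Ezh2 and Ezh2-Y726D for Tlr2, Tlr3, Tlr9, Nlrp3, Casp1 and Il1b, all higher with Ezh2 (6 of 10 genes, against 19.2%). For Tlr4, Tlr5, Myd88 and Ticam1 the groups overlapped in all 3 comparisons, and for Ezh2 against GFP they overlapped for all 10, where 7.38% of all annotated genes were higher and 2.45% lower. Without GFP replicate 1 or 3 that last comparison had 1 gene that did not overlap, and without Ezh2 replicate 2 it had 2. Exact permutation tests can give no p below 0.1 with 3 libraries against 3 or 2.

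**Figure D2:**
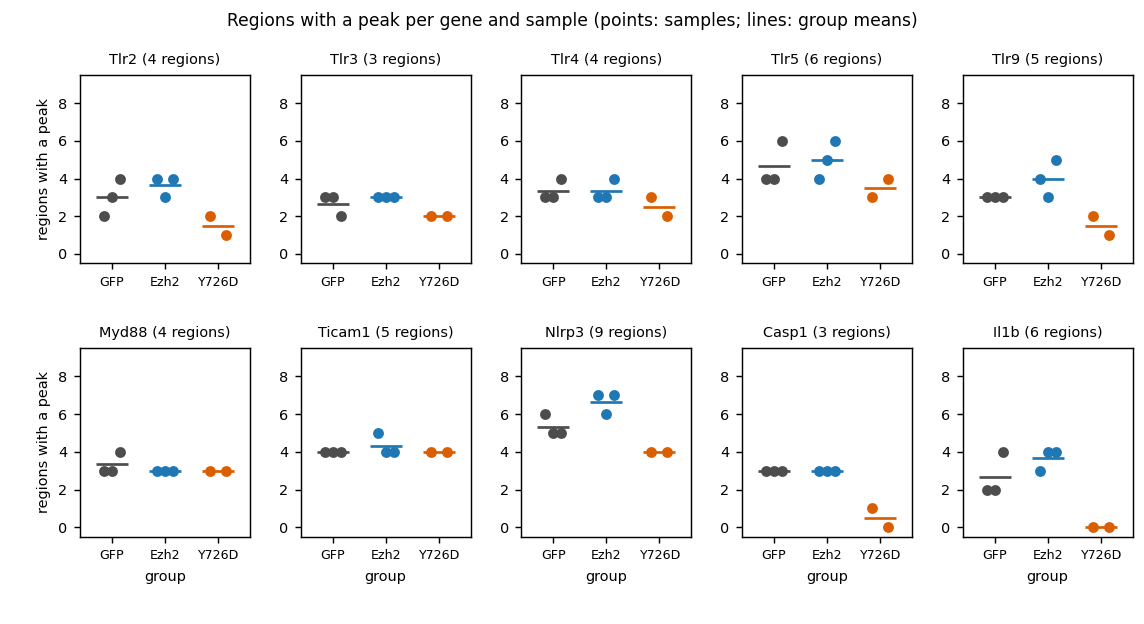
Number of regions with a peak (y axis) in each library (points) of the 3 groups (x axis, Y726D standing for Ezh2-Y726D), with the group mean as a line, for each of the 10 genes. Il1b falls to 0 and Casp1 to 0 or 1 in the Ezh2-Y726D libraries, and Myd88 and Ticam1 keep 3 and 4 there.

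Among the surface receptors, Tlr2 (chr3:83836272-83841824, minus strand) kept its start open. The region over its start, chr3:83840993-83842049, stood at percentiles of 76.7, 76.1 and 78.1 in GFP, 75.2, 79.3 and 80.8 with Ezh2, and 81.2 and 82.7 with Ezh2-Y726D. All 8 values lay within a narrow band and no test called it. A weaker region 3291 bp before the start, chr3:83844899-83845510, stood at 29.1, 13.1 and 31.8 in GFP and at 22.5, 17.1 and 15.0 in Ezh2, and had no peak with Ezh2-Y726D. Its mean was lower with Ezh2-Y726D than with GFP by the percentile test (-24.7 ± 5.96, SE, adjusted p = 0.0466). That call was lost in 11 of 15 alternatives, among them a −log10 q of at least 5 (-11.3), the removal of GFP replicate 1 or 3, of any Ezh2 replicate, and of either Ezh2-Y726D replicate. When peaks were ranked by −log10 p it held, at -43.0.

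Tlr4 (chr4:66827551-66846581) had adjacent regions that moved in opposite directions. The region over the gene end at the lower coordinate, chr4:66827308-66828522, stood at 80.2, 76.3 and 77.2 in GFP and at 88.9, 86.8 and 83.6 in Ezh2, and with Ezh2-Y726D it was at 30.3 in replicate 1 and had no peak in replicate 2. The reference used here gives no strand for Tlr4. With the missing peak at 0, the difference was -62.8 ± 8.24 (SE, adjusted p = 0.00576) between Ezh2-Y726D and GFP and 71.3 ± 8.24 (adjusted p = 0.00219) between Ezh2 and Ezh2-Y726D, and both calls held in all 15 alternatives. The next region inside the gene, chr4:66828659-66829439, stood at 52.2, 65.7 and 50.8 in GFP, 37.7, 37.2 and 62.7 with Ezh2, and 88.6 and 80.4 with Ezh2-Y726D, so that both Ezh2-Y726D values were above all others. By normal scores it was higher with Ezh2-Y726D than with GFP by 1.02 ± 0.276 (SE, adjusted p = 0.05, just under the threshold before rounding), a call lost in 10 of 14 alternatives. Those included the removal of GFP replicate 1 or 3, Ezh2 replicate 1 or 2, or either Ezh2-Y726D replicate. A further region, 5695 bp outside the same end, had the same order, with 64.5, 74.8 and 69.5 in GFP, 44.4, 70.4 and 61.3 with Ezh2, and 98.5 and 86.3 with Ezh2-Y726D. The normal scores of these latter 2 regions were lower with Ezh2 than with Ezh2-Y726D, by -1.33 ± 0.276 (SE, adjusted p = 0.0121) and -1.65 ± 0.351 (SE, adjusted p = 0.0134), and each call was lost without Ezh2-Y726D replicate 1 alone (the latter at -1.02). By the percentile test they were lower by -38.6 ± 9.12 (SE, adjusted p = 0.0291) and -33.7 ± 8.22 (SE, adjusted p = 0.0323). Those calls held in 9 and 10 of 15 alternatives. Both were lost with the replicate block and without either Ezh2-Y726D replicate.

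Tlr5 (chr1:182954752-182976044, plus strand) had no region that either test called. Over its start, chr1:182954241-182955389, the percentiles were 50.7, 44.7 and 53.3 in GFP, 17.6, 59.9 and 69.0 with Ezh2, and 50.0 and 44.7 with Ezh2-Y726D. The Ezh2 libraries spanned the values of both other groups, and no test called it. The strongest of all member regions lay 28150 bp downstream of the Tlr5 start, at percentiles of 99.7 to 100 in every library. One weak region, 3132 bp before the start, had a peak in GFP replicate 3 (26.5) and in the 3 Ezh2 libraries (47.3, 29.0 and 19.4) and none with Ezh2-Y726D. It was gained by presence between Ezh2 and Ezh2-Y726D and called by neither test. Inside the gene, chr1:182964672-182965306 stood at 37.1, 32.9 and 36.6 in GFP, had no peak in Ezh2 replicate 1 and stood at 6.13 and 27.6 in the others, and stood at 9.44 in Ezh2-Y726D replicate 2 with no peak in replicate 1. All 3 GFP values were above all others, and the difference of -30.8 ± 8.18 (SE, adjusted p = 0.0622) between Ezh2-Y726D and GFP missed the threshold but passed it with lists of equal length and with a −log10 q of at least 5. The region chr1:182959184-182960633 stood at 81.7, 78.2 and 87.8 in GFP, 90.0, 86.0 and 82.4 with Ezh2, and 74.3 and 71.7 with Ezh2-Y726D, which were below all others. Its difference of 13.1 ± 3.9 (SE, adjusted p = 0.0607) between Ezh2 and Ezh2-Y726D also missed the threshold and passed it with lists of equal length.

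Of the endosomal receptors, Tlr3 (chr8:45395665-45411075, minus strand) was open at its start in all libraries. The region chr8:45409828-45411111 stood at 79.8, 77.8 and 92.4 in GFP, 90.9, 81.4 and 89.6 with Ezh2, and 88.6 and 92.3 with Ezh2-Y726D, groups that overlapped. A region 4523 bp before the start stood at 24.5, 28.7 and 37.4 in GFP, at 46.5, 34.4 and 15.9 in Ezh2, and had no peak with Ezh2-Y726D. Its difference between Ezh2 and Ezh2-Y726D was 32.3 ± 8.87 (SE, adjusted p = 0.0472), which was lost in 13 of 15 alternatives, including the removal of any library except Ezh2 replicate 3. It was 17.7 with a −log10 q of at least 5 and 16.8 where a peak had to span at least 0.5 of the region.

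Tlr9 (chr9:106222598-106226876, plus strand) lost the peak over its start with Ezh2-Y726D, the promoter printed above with the AP-1 match and no CpG. The region chr9:106222116-106222907 stood at 23.2, 16.9 and 32.2 in GFP and at 48.0, 33.8 and 52.2 in Ezh2, and neither Ezh2-Y726D library had a peak. All 3 Ezh2 values were above all 3 GFP values, a difference that limma did not call. Between Ezh2 and Ezh2-Y726D the difference of 44.7 ± 6.67 (SE, adjusted p = 0.00575) held in all 15 alternatives. Against GFP the fall of 24.1 on the percentile scale, from a group mean of 24.1 ± 7.69 (SD, n = 3) to no peak, missed the threshold. A flanking region 7379 bp downstream of the start stood at 50.8, 38.8 and 31.2 in GFP, 51.0, 40.0 and 56.0 in Ezh2, and had no peak with Ezh2-Y726D. It was lower with Ezh2-Y726D than with GFP (-40.3 ± 6.91, SE, adjusted p = 0.0151), a call lost without either Ezh2-Y726D replicate and in 4 other alternatives (-25.9 with a −log10 q of at least 5), and higher with Ezh2 than with Ezh2-Y726D (49.0 ± 6.91, SE, adjusted p = 0.00466), which held in all 15. Inside the gene the order was the opposite. The region chr9:106225819-106226787 stood at 69.4, 64.8 and 77.0 in GFP, 36.3, 75.5 and 43.5 with Ezh2, and 92.0 and 90.7 with Ezh2-Y726D. Its normal score was lower with Ezh2 than with Ezh2-Y726D by -1.55 ± 0.319 (SE, adjusted p = 0.0117), a call lost without either Ezh2-Y726D replicate and, at -0.78, when peaks were ranked by −log10 p.

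**Figure D3:**
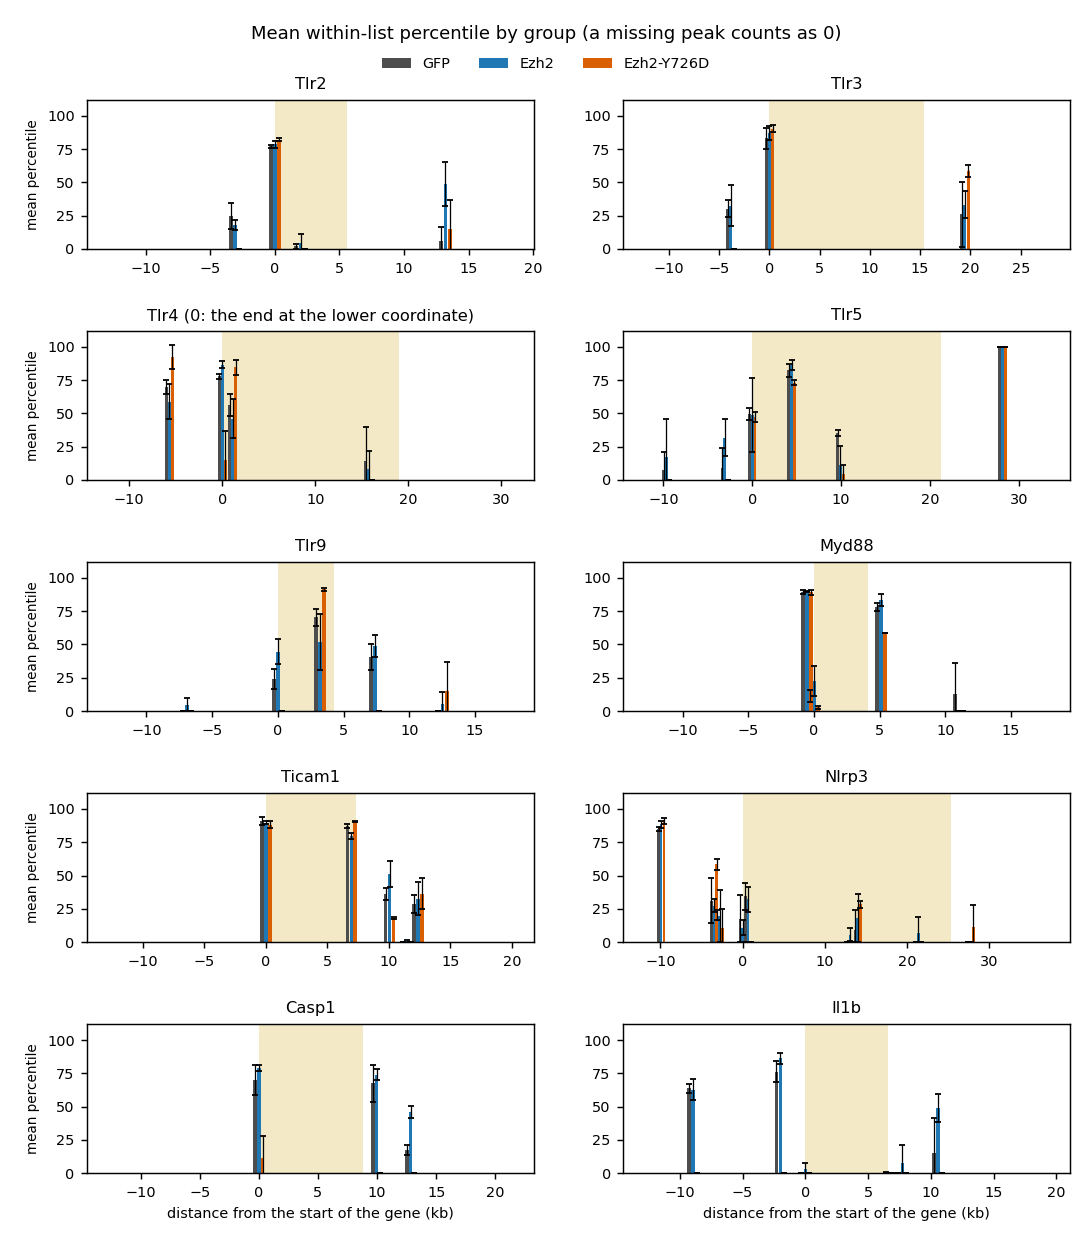
Mean within-list percentile of each region (y axis, a missing peak counted as 0; bars are group means, error bars the SD over 3, 3 and 2 libraries) against its distance from the start of the gene in kb (x axis; the shaded span is the gene; for Tlr4 distance is from the end at the lower coordinate). The Ezh2-Y726D bars are absent at Il1b and low or absent at Casp1, while Tlr4 shows a low Ezh2-Y726D bar at 0 between higher ones on both sides.

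The adaptors kept their peaks in all groups. Myd88 (chr9:119335934-119340018, minus strand) had 3 regions with a peak in every library. The region over its start, chr9:119339560-119340399, was weak throughout, at 6.42, 12.7 and 15.2 in GFP, 11.7, 21.7 and 34.0 with Ezh2, and 1.93 and 3.44 with Ezh2-Y726D. Both Ezh2-Y726D values were below all others, and the normal score was higher with Ezh2 than with Ezh2-Y726D by 0.94 ± 0.218 (SE, adjusted p = 0.0193), a call lost without either Ezh2-Y726D replicate and, at 0.24, over the regions with a peak in at least 5 lists. The neighbouring region 549 bp before the start was strong, at 87.7 to 90.6 in all 8 libraries. A region beyond the end of the gene, chr9:119334099-119334920, stood at 78.1, 81.5 and 75.0 in GFP, 77.9, 85.8 and 86.6 with Ezh2, and 58.9 and 58.7 with Ezh2-Y726D. It was lower with Ezh2-Y726D than with GFP (-19.4 ± 3.70, SE, adjusted p = 0.0220), a call lost without GFP replicate 1 or 2 or either Ezh2-Y726D replicate and with a replicate block, and higher with Ezh2 than with Ezh2-Y726D (24.6 ± 3.70, SE, adjusted p = 0.00593), which held in all 15 alternatives.

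Ticam1 (chr17:56269462-56276767, minus strand) had the same 4 regions in every library. Over its start, chr17:56276058-56277747, the percentiles were 88.3, 93.8 and 91.2 in GFP, 88.4, 91.0 and 89.6 with Ezh2, and 86.3 and 90.2 with Ezh2-Y726D, with no call. In the flank, 10062 bp past the start, the region chr17:56265956-56266705 stood at 35.5, 32.3 and 40.8 in GFP, 42.6, 48.3 and 62.1 with Ezh2, and 17.7 and 18.5 with Ezh2-Y726D. These 3 groups did not overlap. The difference between Ezh2 and Ezh2-Y726D was 32.9 percentile points ± 6.00 (SE, adjusted p = 0.0119), and it was lost without either Ezh2-Y726D replicate and where a peak had to span at least 0.5 of the region. The region at the far end of the gene, chr17:56268966-56269811, went the other way, at 85.9, 89.0 and 87.0 in GFP, 78.9, 77.7 and 82.6 with Ezh2, and 90.6 and 90.8 with Ezh2-Y726D. Its difference of -10.9 ± 2.67 (SE, adjusted p = 0.0325) was lost without Ezh2 replicate 1 or 2 or either Ezh2-Y726D replicate, with a replicate block, and, at -2.69, when peaks were ranked by −log10 p.

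Nlrp3 (chr11:59541569-59566955, plus strand), the sensor that assembles the inflammasome, had peaks over both annotated starts in every GFP and Ezh2 library and over neither with Ezh2-Y726D. The region over the first start, chr11:59541322-59541711, was weak and uneven, at 15.2, 1.49 and 36.4 in GFP and 14.0, 14.1 and 4.77 in Ezh2, and was called by presence only. The region over the second, chr11:59542241-59542926, stood at 23.1, 43.0 and 37.0 in GFP and at 25.4, 27.8 and 43.1 in Ezh2. GFP and Ezh2 overlapped in both regions. For the second, the difference was -34.4 ± 7.51 (SE, adjusted p = 0.0344) between Ezh2-Y726D and GFP and 32.1 ± 7.51 (SE, adjusted p = 0.0282) between Ezh2 and Ezh2-Y726D. The former was lost without GFP replicate 2 or 3, Ezh2 replicate 2 or either Ezh2-Y726D replicate, and the latter without Ezh2 replicate 2 or 3 or either Ezh2-Y726D replicate. Both were also lost with lists of equal length, with the replicate block and with a −log10 q of at least 5, where they were -20.1 and 16.4. Upstream, a strong region 9909 bp before the first start stayed at 83.2 to 92.5 in all libraries. Closer in, a region 3463 bp before the first start was highest with Ezh2-Y726D, at 61.4 and 55.2, against 11.7, 38.6 and 42.6 in GFP and 23.2, 33.0 and 26.0 in Ezh2. Its normal score was lower with Ezh2 than with Ezh2-Y726D by -0.89 ± 0.262 (SE, adjusted p = 0.0487), which was lost without GFP replicate 3, any Ezh2 replicate or either Ezh2-Y726D replicate, with a replicate block, and, at -0.24, when peaks were ranked by −log10 p. Counting all 9 regions, 6, 5 and 5 held peaks for GFP, 7, 6 and 7 for Ezh2, and 4 and 4 for Ezh2-Y726D (exact permutation p = 0.1 for either group against Ezh2-Y726D).

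At Casp1 (chr9:5298517-5307281, plus strand), which encodes the protease of the inflammasome, all 3 regions had peaks in each GFP and Ezh2 library, and 1 and 0 had one in the Ezh2-Y726D libraries. Over the start, chr9:5298044-5299261, the percentiles were 67.4, 59.9 and 82.4 in GFP and 81.1, 78.0 and 77.2 in Ezh2, with 22.9 in Ezh2-Y726D replicate 1 and no peak in replicate 2. GFP averaged 69.9 ± 11.4 (SD, n = 3) and Ezh2 78.8 ± 2.06 (SD, n = 3), and the difference was -58.4 ± 8.65 (SE, adjusted p = 0.00884) between Ezh2-Y726D and GFP and 67.3 ± 8.65 (SE, adjusted p = 0.00333) between Ezh2 and Ezh2-Y726D. The latter held in all 15 alternatives and the former in 14, all but the block by the numbers in the peak names. The other 2 regions lay downstream over the neighbouring gene Casp4, caspase-11, so they cannot be assigned to Casp1 alone. The nearer, chr9:5308474-5309683, stood at 77.9, 51.7 and 73.1 in GFP and 75.5, 69.2 and 76.9 in Ezh2, with no peak with Ezh2-Y726D. It differed by -67.6 ± 7.78 (SE, adjusted p = 0.00357) between Ezh2-Y726D and GFP and by 73.8 ± 7.78 (SE, adjusted p = 0.00157) between Ezh2 and Ezh2-Y726D, and both calls were lost when a peak had to span at least 0.5 of the region. The farther, chr9:5311351-5311987, was the 1 member region called between Ezh2 and GFP. It stood at 15.5, 21.7 and 15.3 in GFP and at 41.5, 50.4 and 45.0 in Ezh2, groups that did not overlap, and had no peak with Ezh2-Y726D. The difference between Ezh2 and GFP was 28.1 ± 3.29 (SE, adjusted p = 0.00643), and it held in 14 of 15 alternatives, all but lists of equal length, and was 43.6 when peaks were ranked by −log10 p. From Ezh2-Y726D to Ezh2 this region differed by 45.6 ± 3.68 (SE, adjusted p = 0.000613), in all 15, whereas between Ezh2-Y726D and GFP its difference of -17.5 ± 3.68 (SE, adjusted p = 0.0304) was lost in 11 of 15, including the removal of GFP replicate 1 or 2, Ezh2 replicate 3 or either Ezh2-Y726D replicate. It was -9.19 when peaks were ranked by −log10 p and 0 with a −log10 q of at least 5, where no GFP list had a peak.

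Il1b (chr2:129364569-129371164, minus strand), which encodes interleukin-1 beta, had no peak in any of its 6 regions in either Ezh2-Y726D library. The GFP replicates had peaks in 2, 2 and 4 of them and the Ezh2 replicates in 3, 4 and 4 (exact permutation p = 0.1 for either group against Ezh2-Y726D). Accessibility lay upstream and downstream of the gene more than over its start, where only Ezh2 replicate 3 had a weak peak (8.65). The strongest region, chr2:129373156-129373958, lay 2017 bp before the start, within the antisense gene Il1bos, and an ATAC-seq peak carries no strand. It stood at 72.0, 71.0 and 85.2 in GFP and at 88.6, 88.7 and 81.5 in Ezh2, so that GFP replicate 3 fell among the Ezh2 values. The differences were -76.1 ± 5.07 (SE, adjusted p = 0.000519) between Ezh2-Y726D and GFP and 86.2 ± 5.07 (SE, adjusted p = 0.000207) between Ezh2 and Ezh2-Y726D, the largest among the member regions, and they held in all 15 alternatives. A broad region 9009 bp before the start, chr2:129380148-129381447, stood at 60.1, 65.1 and 66.2 in GFP and 55.9, 61.3 and 71.0 in Ezh2, groups that overlapped. Its differences were -63.8 ± 4.77 (SE, adjusted p = 0.000754) between Ezh2-Y726D and GFP and 62.8 ± 4.77 (SE, adjusted p = 0.000488) between Ezh2 and Ezh2-Y726D. Both were lost in 1 alternative, which asked a peak to span at least 0.5 of the region (-42.1 in the former). Downstream of the gene, chr2:129360043-129360570 had a peak in GFP replicate 3 (45.6) and the 3 Ezh2 libraries (55.7, 37.2 and 54.5) and none with Ezh2-Y726D, and was gained between Ezh2 and Ezh2-Y726D by presence only.

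The wider pathway was read at 1 region per gene, the strongest within 1 kb of the start (of either end where no strand is given), for 59 other genes of Toll-like receptor and inflammasome signalling. A region was found for 55, and 41 of these had a peak in all 8 lists. The 4 without one were Tlr8, Tlr13, Nlrc4 and Mefv. Between Ezh2-Y726D and GFP, 9 of the 55 lost the region and 0 gained one, where 2.70% of the start regions of all annotated genes were lost and 1.26% gained. By the percentile test 9 were lower and 0 higher, against 4.06% and 1.79% of all start regions. The 6 with the largest differences were Tlr6, Naip2, Nlrp1b, Casp4, Aim2 and Nlrp1a, all without a peak with Ezh2-Y726D. Tlr6, a surface partner of Tlr2, stood at 82.1, 65.3 and 78.8 in GFP and 69.3, 63.8 and 62.5 in Ezh2. Its difference from GFP was -75.4 ± 5.39 (SE, adjusted p = 0.000638). Aim2, a sensor of cytosolic DNA, stood at 78.0, 58.9 and 65.6 in GFP and 81.6, 81.1 and 78.8 in Ezh2, with a difference from GFP of -67.5 ± 5.48 (SE, adjusted p = 0.00101). Naip2, a sensor of bacterial secretion systems (-72.1), and the sensors Nlrp1b (-71.6) and Nlrp1a (-62.2) have near-identical gene copies, so their reads may have been shared, and the Casp4 region (-67.6) is the one described in the flank of Casp1. The rank test took the 41 genes with a peak in all 8 lists. By normal scores, 1 was higher with Ezh2-Y726D than with GFP, Sigirr (0.988 ± 0.195, SE, adjusted p = 0.0163). Likewise 1 was lower, Gsdmd (-1.57 ± 0.262, SE, adjusted p = 0.00864). Of all regions in that test, 3.55% were higher and 4.65% lower.

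Between Ezh2 and Ezh2-Y726D, 11 of the 55 genes gained the region and 1 lost it, against 5.08% and 1.71% of all start regions, and 12 were higher and 4 lower by the percentile test, against 8.12% and 3.99%. The 6 largest differences were in the same 6 genes, from 65.2 at Tlr6 to 90.5 at Naip2. The lipopolysaccharide-binding protein gene Lbp had weak peaks in both Ezh2-Y726D libraries (22.9 and 37.8) and none in Ezh2. The genes lower with Ezh2 included Sigirr, an inhibitor of Toll-like and interleukin-1 receptors, which stood at 88.2, 91.0 and 87.1 in GFP, 73.8, 68.7 and 66.3 with Ezh2, and 97.8 and 98.7 with Ezh2-Y726D. The 3 groups did not overlap, and Sigirr was lower with Ezh2 than with Ezh2-Y726D (-28.6 ± 3.12, SE, adjusted p = 0.00176) and than with GFP (-19.1 ± 2.79, SE, adjusted p = 0.0136). Il1r1, the interleukin-1 receptor, stood at 74.2, 68.0 and 66.6 in GFP, 45.9, 49.1 and 53.4 with Ezh2, and 64.2 and 75.5 with Ezh2-Y726D. It was lower with Ezh2 than with GFP (-20.2 ± 4.11, SE, adjusted p = 0.0391) and than with Ezh2-Y726D (-20.4 ± 4.60, SE, adjusted p = 0.0251). The others lower with Ezh2 than with Ezh2-Y726D were Nfkbia (-17.2), the NF-kB inhibitor, and Irf7 (-13.3). Between Ezh2 and GFP the percentile test called Sigirr and Il1r1, both lower, and no other gene of the 55 (1.98% of all start regions were higher and 1.22% lower), and by presence 0 regions were gained and 0 lost (against 1.08% and 0.597%). The rank test called Sigirr alone, lower with Ezh2 than with GFP (-0.876 ± 0.175, SE, adjusted p = 0.0258), where 1.59% of all its regions were higher and 2.84% lower. Without GFP replicate 2, Ezh2 replicate 1 or Ezh2 replicate 3 the percentile test called 1 gene here, and of the 16 genes it called between Ezh2 and Ezh2-Y726D, 10 were called without Ezh2-Y726D replicate 1 and 9 without replicate 2.

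**Figure D4:**
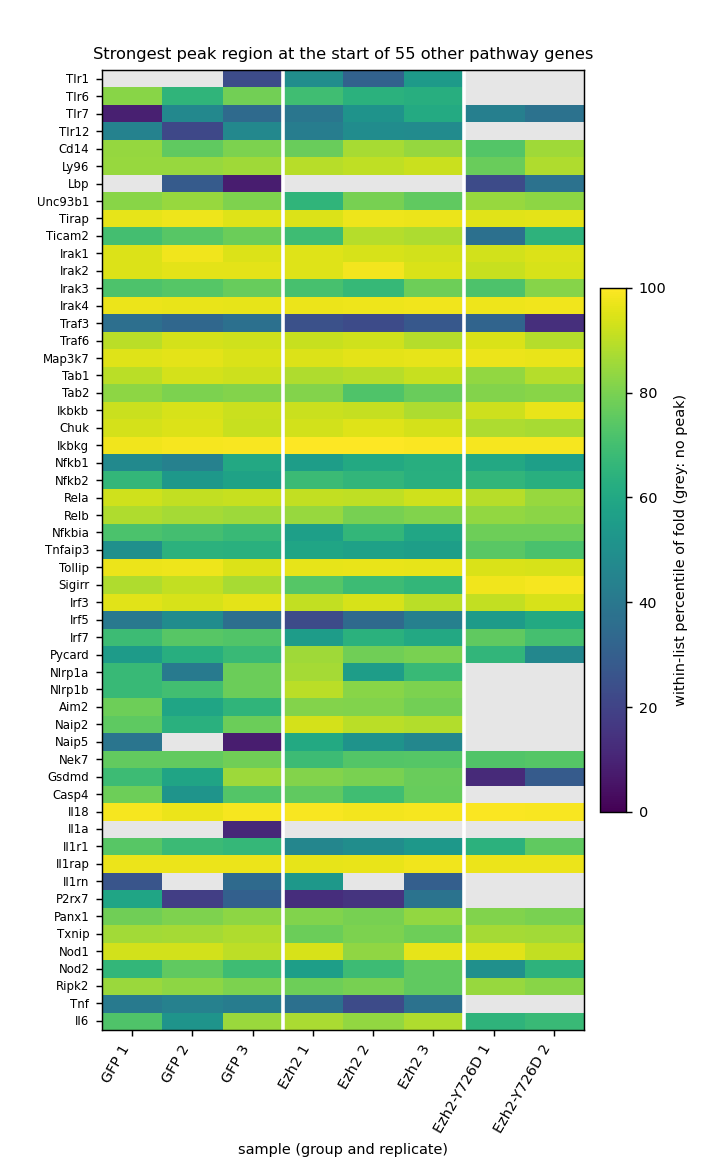
Within-list percentile (colour; grey for no peak) of the strongest region at the start of 55 other pathway genes (y axis) in each of the 8 libraries (x axis). The signalling kinases and NF-kB subunits are coloured in all libraries, and Tlr6, Tlr12, Nlrp1a, Nlrp1b, Aim2, Naip2, Casp4, P2rx7 and Tnf are grey in both Ezh2-Y726D libraries only.

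By number of peaks, the microglia and macrophage, T cell, B cell, and neutrophil and monocyte lists fell with Ezh2-Y726D, as these genes did. The RGC, Müller glia and rod lists did not. Of 20 microglia and macrophage markers, 16, 14 and 18 had a peak within 1 kb of the start for GFP, 18, 16 and 17 for Ezh2, and 6 and 5 for Ezh2-Y726D. Their summed percentile was 612 to 816, 751 to 963, and 360 to 361. The defining genes Cx3cr1, C1qb, Tyrobp, Fcer1g, Cd68, Ptprc and Ctss had peaks in all 6 GFP and Ezh2 libraries and in neither Ezh2-Y726D library, whereas P2ry12, C1qc, Sall1 and Spi1 had a peak in both of the latter. Of 20 T cell markers, peaks marked 17, 17 and 19 for GFP, 20, 19 and 19 for Ezh2, and 7 and 6 for Ezh2-Y726D (summed percentile 906 to 1030, 1030 to 1110, and 272 to 388), and Cd3e, Cd3g and Cd247 were among the 9 with no peak in Ezh2-Y726D and one in every other library. The T cell markers Cd2, Cd4, Cd5, Bcl11b, Tcf7 and Skap1 had a peak in both Ezh2-Y726D libraries. Of 15 neutrophil and monocyte markers, 2 to 3, 2 to 5 and 0 had a peak, and of 15 B cell markers 6, 6 and 4. Of 20 RGC markers, 18 to 19 had a peak in each of the 8 libraries, as did 13 to 14 of 15 Müller glia markers and 11 to 14 of 15 rod markers. Their summed percentiles were also lowest with Ezh2-Y726D, at 1140 to 1180, 1180 to 1240, and 1070 to 1130 for RGC markers and at 807 to 872, 812 to 853, and 751 to 779 for Müller glia markers, groups that did not overlap with Ezh2-Y726D, and at 634 to 680, 556 to 682, and 501 to 572 for rod markers, which overlapped with Ezh2. In bulk libraries fewer cells of a type and less accessible chromatin per cell cannot be told apart, and the part of leukocytes in the differences at the 10 genes was not tested.

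**Figure D5:**
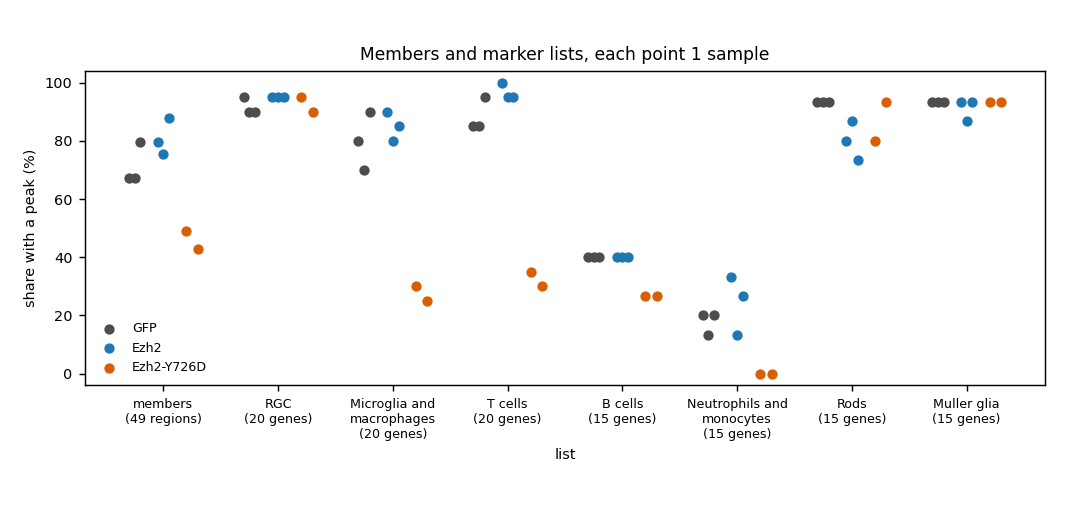
Share with a peak (y axis, percent) of the 49 member regions and of each marker list (x axis), 1 point per library, coloured by group. The Ezh2-Y726D points lie below all others for the members, the microglia and macrophage, T cell, B cell, and neutrophil and monocyte lists, and among the others for RGC and Müller glia markers.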

How the data were processed

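The 8 ATAC-seq libraries were deposited as 1 MACS2 narrowPeak list each, called per library. The tools named in the submitters' processing notes are cutadapt, Bowtie2, SAMtools, Picard, MACS2 and deepTools, on build GRCm38, and their versions are not given in the sources used here. The authors deposited each peak with its fold over background, a ratio, and with −log10 p and −log10 q values. No read counts were used, so depth is known only indirectly, from peak numbers and an index read from the folds, and no counting interval can be given.

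Lists were merged, gene bounds were taken from RefSeq (GRCm38.p6), and a region took the highest fold of a list's peaks in it. Normal scores were computed with scipy 1.17.1. Group means were compared with limma 3.58.1 (R 4.3.3), all 8 libraries in 1 fit without covariates. Numbers per gene were compared with two-sided exact permutation tests. Both limma tests were tried on simulated data, in which 200 regions were moved in Ezh2-Y726D by 3 normal scores or 60 percentile points. The rank test recovered 199 against GFP and 199 against Ezh2, and also called 21 and 12 unchanged regions. The percentile test recovered 69 and 65, so it missed most simulated shifts of that size, and it called 2 and 4 unchanged regions. The simulated spread came from the GFP and Ezh2 libraries only. The labels give no batch.

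All 10 genes are named, with the regions over their starts and those gained, lost or called, and of the other pathway genes at most 6 per comparison and direction. Members, gene lists and motifs were chosen with earlier results of these data known. The alternatives were lists of equal length (112939 peaks), −log10 q of at least 5, a minimum cover of 0.5, ranking by −log10 p, regions in at least 5 lists, a 3 kb window, a replicate block and leaving out each library. Il1bos, Casp4 and other neighbours share regions with the members.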

Additional observations from a re-analysis of the deposited data

How the results depend on the processing

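Of 34 region calls followed, none changed direction in any alternative, 9 were kept under every alternative and 25 were lost under at least 1, most often without Ezh2-Y726D replicate 1 (19) or replicate 2 (17). The differences in number of regions of Tlr3, Tlr4, Tlr5 and Nlrp3 changed sign in 1 comparison each under 1 or 2 alternatives, in comparisons where the gene's counts overlapped. With 2 Ezh2-Y726D libraries and no read counts, a missing weak peak says little.

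Between Ezh2 and GFP, 1 member region was gained or lost, against 0, with lists of equal length, with −log10 q of at least 5 and with a cover of at least 0.5. In those 3 alternatives 1 other pathway gene was gained or lost, against 0, and the percentile test called 5 such genes with equal length and 4 with the −log10 q minimum, against 2. The gene counts did not overlap for 1 gene with the −log10 q minimum and with the cover. Between Ezh2-Y726D and GFP, the rank test called 3 regions, against 1, with equal length and the −log10 q minimum (2 higher and 1 lower) and ranking by −log10 p (0 higher and 3 lower), the gene counts did not overlap for 7 genes, against 4, with the −log10 q minimum, and the difference in number of regions was -8.83 with the cover. The rank test over regions in at least 5 lists called 1 region in Ezh2 against GFP (higher), 10 in Ezh2-Y726D against GFP (all lower) and 17 in Ezh2 against Ezh2-Y726D, more regions being tested. With the 3 kb window the differences in number of regions were 1.33, -7.17 and 8.5, fewer regions being counted, presence gave 5 regions in Ezh2-Y726D against GFP and 5 in Ezh2 against Ezh2-Y726D, and the percentile test 0 in Ezh2 against GFP and 6 in Ezh2-Y726D against GFP.

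With the replicate number as a block, the percentile test called 5 regions and the rank test 0 in Ezh2-Y726D against GFP. Numbers read from the peak names, which differ from the titles for Ezh2-Y726D and were tried after seeing the data, gave 5 and 0 as blocks too, and 0 pathway genes by the percentile test in Ezh2 against GFP. By the title numbers, deviations of same-numbered libraries from their group means correlated at -0.02 to 0.05, and those of other pairs at -0.05 to 0.05. By the peak-name numbers the ranges were 0.00 to 0.05 and -0.05 to 0.03. No pair passed 0.1, the minimum set for pairing, under either numbering, but correlations this small cannot exclude it. The labels give no batch, so whether libraries were paired is not known.

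Leaving out 1 library at a time, the differences in number of regions were 3.00 to 6.67 for Ezh2 against GFP, -14.0 to -10.5 for Ezh2-Y726D against GFP and 15.5 to 18.7 for Ezh2 against Ezh2-Y726D. In the same order, presence gave 0 to 3, 10 to 14 and 12 to 15 regions, the rank test 0 to 1, 0 to 3 and 0 to 7, and the percentile test 1 to 3, 5 to 12 and 9 to 16. Genes whose counts did not overlap numbered 0 to 2, 4 to 6 and 6 to 7. Other pathway genes gained or lost numbered 0 to 1, 9 to 11 and 12 to 13, and those called by the percentile test 1 to 3, 7 to 9 and 9 to 16.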
